A study of Homo sapiens with 36 samples.

Results

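The genes described here are the proteasome genes of UM-SCC-1 cells: all genes typed as protein-coding in the deposited expression table whose symbol begins with PSM, a letter from A to G and a number. The rule found 46 of 21797 listed genes. Testing required an average level of 1 CPM or more over all libraries (CPM gives reads relative to a scaled library size), and 45 members passed among 18227 genes tested; the remaining member, PSMB9, was at 0.77 CPM. Of the members, 44 were grouped as proteasome subunits, assembly chaperones or regulators, while PSMC3IP and PSME3IP1 are members by the rule and are named apart. Another 5 genes with matching symbols are antisense RNAs or pseudogenes and were left out by the rule.

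The proteasome is the protease that degrades proteins tagged with ubiquitin. Its core is a barrel of stacked alpha and beta rings with the proteolytic sites inside, and its cap holds a ring of ATPases that unfold substrates and a lid that binds and removes ubiquitin. Transcription of subunit genes is known to be raised together by the factor NRF1 (gene NFE2L1) when proteasome activity falls, and interferon exchanges the catalytic beta subunits for inducible ones.

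UM-SCC-1 is a cultured human line that derives from squamous cell carcinoma of the head and neck. All cells were infected with retrovirus and selected with 10 ug/mL blasticidin for 4 days, controls included. RNA-seq and m6A-seq groups are ALKBH5 shRNA-1, ALKBH5 shRNA-2 and ALKBH5 scramble, and RBM33 shRNA-1, RBM33 shRNA-2 and RBM33 scramble, so that each target has a scramble group of its own. ALKBH5 removes the RNA modification N6-methyladenosine (m6A), and RBM33 binds RNA and is known as a partner of ALKBH5. The sample titles speak of shRNA and the design text of siRNA; the titles are followed. RNA-seq inputs were analysed for 2, 2 and 3 libraries of the ALKBH5 set and for 2, 3 and 3 libraries of the RBM33 set, in the order given. The m6A-seq enters through the authors' comparisons of each shRNA with its scramble. The labels do not tie replicates to separate cultures, and the p-values therefore cover the spread between these libraries, which may be technical.

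Libraries held between 4493849 and 6733017 reads in listed genes, and the proteasome genes took between 0.451% and 0.463% of the reads in ALKBH5 shRNA libraries, against 0.385% to 0.419% in ALKBH5 scramble. In libraries labelled RBM33 shRNA they took between 0.426% and 0.464%, against 0.418% to 0.442% in RBM33 scramble. ALKBH5 itself was at 84.7 and 84.8 CPM with ALKBH5 shRNA-1 and 75.1 and 89.6 CPM with ALKBH5 shRNA-2, against 109, 132 and 123 CPM with ALKBH5 scramble, so that it fell by 0.53 in log2 units (limma adjusted p = 9.1e-05). RBM33 was at 191 and 204 CPM in libraries labelled RBM33 shRNA-1 and 208, 199 and 214 CPM in those labelled RBM33 shRNA-2, against 217, 207 and 227 CPM with RBM33 scramble, a difference of -0.10 (limma adjusted p = 0.27), so RBM33 RNA was not called lower and these libraries are named by their label throughout. In bulk RNA, fewer cells of a type and less RNA per cell cannot be told apart. Of 9 squamous epithelial markers, 4 were analysed (SFN, DSG3, CDH1 and EPCAM), and none exceeded 4.2 CPM in any library. The other markers of that list were not analysed. The summed level of 6 fibroblast markers was 36.1 to 37.0 CPM in ALKBH5 shRNA libraries, against 32.9 to 40.3 CPM in ALKBH5 scramble, and 26.5 to 33.2 CPM in libraries labelled RBM33 shRNA, against 33.6 to 38.8 CPM in RBM33 scramble. Most of each sum was COL1A1 (14.49 to 23.8 CPM over all libraries) and COL3A1 (7.05 to 13.25 CPM). COL1A2, LUM, DCN and PDGFRB reached at most 4.10 CPM in any library. The 3 leukocyte markers analysed summed to at most 6.16 CPM, and VWF, the endothelial marker analysed, reached 1.93 CPM.

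RefSeq windows (GRCh38.p14) covering the 250 bases before a gene start were found for 40 of the 46 members. PSMA7, PSMB1, PSMB6, PSMB7, PSMD4 and PSMG3 had none in the table used. The windows below belong to members that were higher in the ALKBH5 set, and PSMD3 and PSMD6 were higher in both sets. Capitals mark matches to TGACNNNGC, the core of the antioxidant response element that NRF1 is known to bind, searched on both strands.
PSMB3, chr17:38752491-38752740, plus strand: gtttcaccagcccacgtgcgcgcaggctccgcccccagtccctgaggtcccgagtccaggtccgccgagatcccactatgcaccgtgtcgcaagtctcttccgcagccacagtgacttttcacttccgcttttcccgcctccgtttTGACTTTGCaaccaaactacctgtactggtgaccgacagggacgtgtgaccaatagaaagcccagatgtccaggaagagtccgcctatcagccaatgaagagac
PSMD3, chr17:39980557-39980806, plus strand: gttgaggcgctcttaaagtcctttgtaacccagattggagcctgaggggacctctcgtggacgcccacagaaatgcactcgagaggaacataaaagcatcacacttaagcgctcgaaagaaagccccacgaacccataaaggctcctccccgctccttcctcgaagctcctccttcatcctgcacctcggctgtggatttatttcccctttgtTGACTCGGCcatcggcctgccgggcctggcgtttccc
PSMD6, chr3:64023495-64023744, minus strand: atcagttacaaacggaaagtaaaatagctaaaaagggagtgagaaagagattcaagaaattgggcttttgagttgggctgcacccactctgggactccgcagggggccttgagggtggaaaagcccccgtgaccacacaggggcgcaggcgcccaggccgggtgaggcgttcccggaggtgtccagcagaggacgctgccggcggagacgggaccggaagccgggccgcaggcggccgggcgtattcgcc
The PSMB3 match began 104 bases and the PSMD3 match 37 bases before the RefSeq start, and no match lies in the PSMD6 window. No match lay either in the windows of PSMA2, PSMA3, PSMB2, PSMC1, PSMC3, PSMD8 and PSME3, which also rose in the ALKBH5 set. The core lay in windows of PSMA4, PSMC5, PSMD9, PSMD12, PSME1, PSME2, PSME4, PSMG1 and PSMG2, which were not called higher there. PSMB9, which held it too, was not tested. Of members with a window, 12 of 40 held the core, or 30%, against 13.2% of 27303 genes. In these motif shares, genes are all those with a RefSeq window, not selected by type or level, while the members are protein-coding and mostly abundant. CCAAT (both strands) was held by 20 of 40 members, or 50%, against 37.0% of genes. GGGCGG (both strands) was held by 28 of 40, or 70%, against 46.2% of genes. These matches are descriptions of the letters and not of binding, and the motif classes may overlap one another.

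Transcript levels of subunits spanned a wide range. Divided by gene model length and averaged over the 15 libraries, PSMA7 stood highest at 142 CPM per kb, followed by PSMD4 at 86.8, PSMC3 at 74.2, PSMD7 at 73.8 and PSMB1 at 62.4 CPM per kb. The median member was at 18.7 CPM per kb. The inducible core subunits were lowest, with PSMB10 at 2.05 and PSMB9 at 0.231 CPM per kb. Gene models are the authors' and include all annotated exons, so a long model such as that of PSMD1 (15795 bases) gives a low value. A gene on either strand overlaps 24 of the 46 members in the deposited table, and no source used here states whether counting used strand, so reads of such pairs may have been shared.

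In the ALKBH5 shRNA libraries, core and cap genes of the proteasome stood higher than in ALKBH5 scramble. Of 45 members tested, 15 rose (33.3%) and 1 fell, against 7.93% of all tested genes that rose and 7.18% that fell at limma adjusted p under 0.05. The member that fell was PSMC3IP, which is not a subunit. The median difference over members was 0.21 on the log2(CPM + 1) scale, against 0.01 over all genes, and 40 of 45 members had a positive sign. Proteasome genes are more abundant than most genes: their median was 84.0 CPM, against 15.8 CPM over all genes tested. Among the 8149 genes averaging 20 CPM or more, a threshold chosen after the values were seen, 13.2% rose, against 15 of the 43 members at that level. Without ALKBH5 scramble replicate 3, 10 members rose and 0 fell. In 18 of 45 members every ALKBH5 shRNA library lay above every scramble library, and in 2 every one lay below, against 12.3% and 11.9% of all genes.

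By role, 5 of 7 constitutive beta ring genes rose, and all 7 had a positive sign, with a median of 0.36. In the alpha ring 3 of 7 rose (median 0.27), in the ATPase ring 2 of 6 (median 0.16), and among the non-ATPase lid and base genes 4 of 11 (median 0.17). None of 6 assembly chaperones passed the test, and 1 of 5 activators and inhibitors did. The changes of all tested members in both sets are drawn with their intervals.

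**Figure D1:**
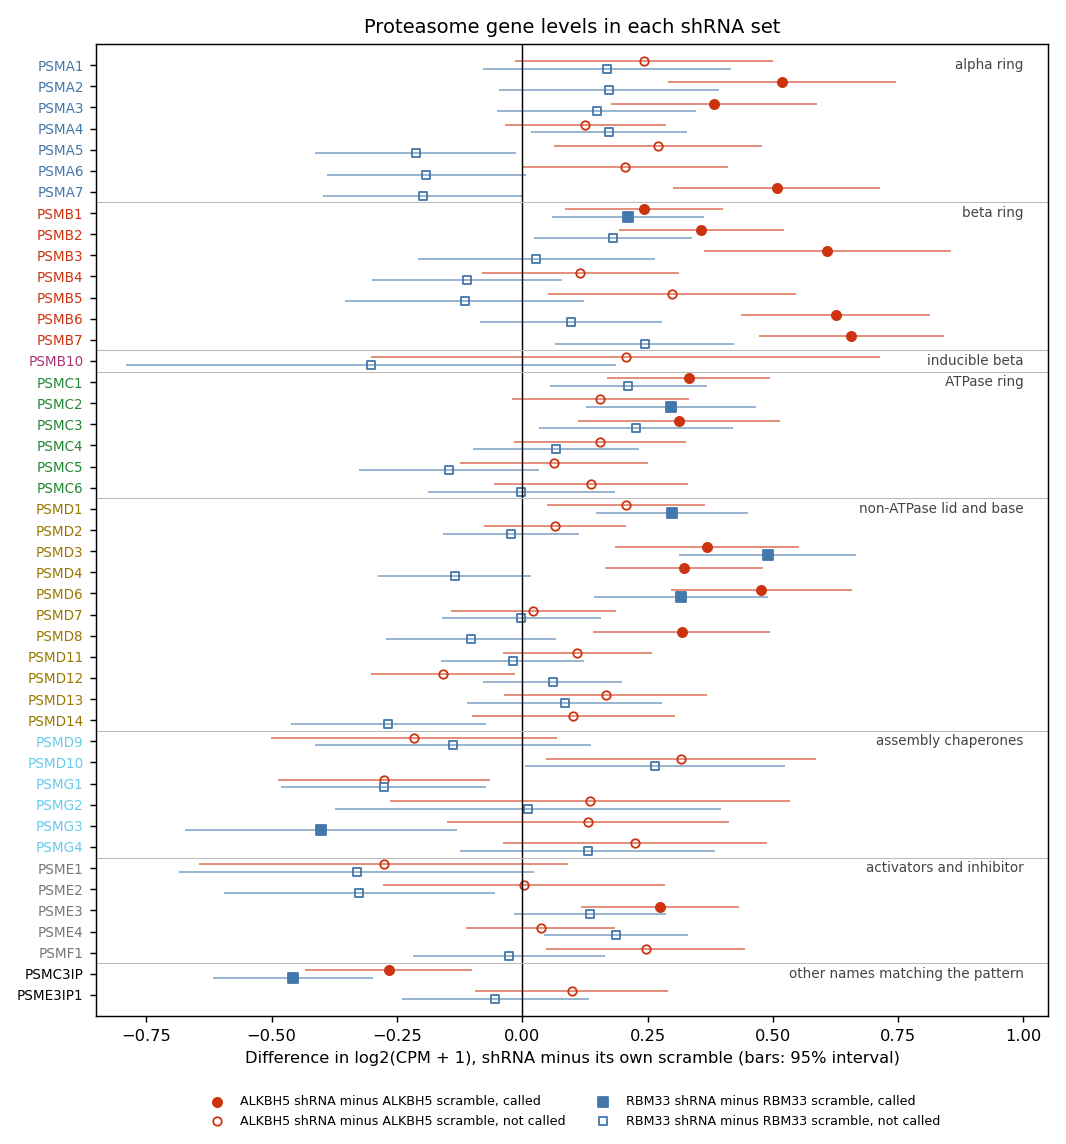
Difference in log2(CPM + 1) between shRNA libraries and their own scramble for the 45 tested members, grouped by role, with 95% intervals; circles show the ALKBH5 set, squares the RBM33 set, and filled symbols passed limma adjusted p under 0.05. The 5 called beta ring genes of the ALKBH5 set lie between 0.24 and 0.66, and 1 of them, PSMB1, is also filled in the RBM33 set.

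The beta ring carries the proteolytic sites. PSMB7, the trypsin-like catalytic subunit (chr9:124353465-124415444, hg38), was at 86.7 and 101 CPM with ALKBH5 shRNA-1 and 84.1 and 81.1 CPM with ALKBH5 shRNA-2, against 55.2, 58.5 and 52.8 CPM with ALKBH5 scramble. No library of either shRNA overlapped scramble, and the difference of 0.66 (SE 0.09, limma adjusted p = 2.2e-05) was the lowest in adjusted p of all members. PSMB6, the caspase-like catalytic subunit (chr17:4796144-4798502), was at 107 and 85.3 CPM with ALKBH5 shRNA-1 and 90 and 84.8 CPM with ALKBH5 shRNA-2, against 54.7, 62.5 and 59.6 CPM with ALKBH5 scramble. Its groups did not overlap either, with a difference of 0.63 (SE 0.09, limma adjusted p = 5.5e-05). PSMB3, a structural subunit of the same ring (chr17:38752741-38764225), was at 43.3 and 40.1 CPM with ALKBH5 shRNA-1 and 53.3 and 49.5 CPM with ALKBH5 shRNA-2, against 35.8, 26.3 and 28.6 CPM with ALKBH5 scramble. Its lowest shRNA library stood above its highest scramble library, and the difference was 0.61 (SE 0.12, limma adjusted p = 0.0011). PSMB2, another structural subunit (chr1:35599541-35641526), was at 85.9 and 78.4 CPM with ALKBH5 shRNA-1 and 76.4 and 75 CPM with ALKBH5 shRNA-2, against 58.4, 61.3 and 64.3 CPM with ALKBH5 scramble. Its difference was 0.36 (SE 0.08, limma adjusted p = 0.0034), again without overlap. PSMB1, also structural, rose by less (0.24 (SE 0.08, limma adjusted p = 0.033)), and that call was lost without any of 5 single libraries (ALKBH5 shRNA-1 replicate 1, shRNA-2 replicate 1 and each of the scramble replicates), with adjusted p between 0.07 and 0.13. The chymotrypsin-like catalytic subunit PSMB5 averaged 51.5 ± 6.3 CPM with ALKBH5 shRNA (SD, n = 4) and 41.7 ± 5.63 CPM with scramble (SD, n = 3), and it did not pass limma's test (0.30, adjusted p = 0.097). PSMB4 did not pass either (0.12, adjusted p = 0.46).

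The inducible beta subunits, which replace catalytic ones under interferon, were scarce. PSMB10 was at 3.44 and 3.46 CPM with ALKBH5 shRNA-1 and 3.63 and 3.85 CPM with ALKBH5 shRNA-2, against 3.43, 2.92 and 2.64 CPM with ALKBH5 scramble. These values rest on 14 to 24 reads a library, and the difference of 0.21 (SE 0.25, limma adjusted p = 0.64) did not pass although the groups do not overlap. PSMB9 was counted by 3, 4, 1 and 2 reads in ALKBH5 shRNA libraries, against 4, 16 and 5 reads with ALKBH5 scramble, and by 2, 3, 6, 9 and 2 reads in libraries labelled RBM33 shRNA, against 4, 2 and 1 reads with RBM33 scramble. ALKBH5 scramble replicate 2 had the highest count, and PSMB9, below the level required, was not tested. PSMB8 was not analysed here.

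The alpha ring forms the gate of the core. PSMA7, its most abundant member (chr20:62136733-62143440), was at 286 and 302 CPM with ALKBH5 shRNA-1 and 285 and 276 CPM with ALKBH5 shRNA-2, against 176, 238 and 196 CPM with ALKBH5 scramble. All shRNA libraries exceeded all scramble libraries, of which replicate 2 was the highest, and the difference was 0.51 (SE 0.10, limma adjusted p = 0.0012). PSMA2 (chr7:42916828-42932185) was at 43 and 52.9 CPM with ALKBH5 shRNA-1 and 47.4 and 37.2 CPM with ALKBH5 shRNA-2, against 30.5, 31 and 31.3 CPM with ALKBH5 scramble, a difference of 0.52 (SE 0.11, limma adjusted p = 0.0023). Its scramble libraries lie close together below all shRNA libraries. PSMA2 lies within a protein-coding locus of the same strand listed as AC010132.3, at 46.1 CPM, so reads may be split between them. PSMA3 rose by 0.38 (SE 0.10, limma adjusted p = 0.011) and lost its call without ALKBH5 shRNA-1 replicate 2 (adjusted p = 0.051) or scramble replicate 3 (adjusted p = 0.062). PSMA1, PSMA4, PSMA5 and PSMA6 had differences between 0.13 and 0.27 that did not pass.

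In the cap, the ATPase ring unfolds substrates. PSMC1 (chr14:90256527-90275429) was at 115 and 121 CPM with ALKBH5 shRNA-1 and 138 and 131 CPM with ALKBH5 shRNA-2, against 104, 102 and 93.9 CPM with ALKBH5 scramble, a difference of 0.33 (SE 0.08, limma adjusted p = 0.0055), with no overlap. Its gene overlaps NRDE2 (47.5 CPM) on the opposite strand over 7570 bases. PSMC3 rose by 0.31 (SE 0.10, limma adjusted p = 0.032), a call lost without ALKBH5 shRNA-1 replicate 2, shRNA-2 replicate 1, or scramble replicate 1 or 3 (adjusted p between 0.096 and 0.17). PSMC2, PSMC4, PSMC5 and PSMC6 did not pass, with differences between 0.06 and 0.16.

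Of the lid and base genes, PSMD6, a lid scaffold subunit (chr3:64010550-64024010), was at 108 and 94.6 CPM with ALKBH5 shRNA-1 and 108 and 108 CPM with ALKBH5 shRNA-2, against 78.3, 71.5 and 74.8 CPM with ALKBH5 scramble. The groups did not overlap and the difference was 0.48 (SE 0.09, limma adjusted p = 0.00062). PSMD6 overlaps the antisense RNA PSMD6-AS2 (4.24 CPM) over 1599 bases. PSMD3, another lid scaffold (chr17:39980807-39997959), was at 99 and 85.3 CPM with ALKBH5 shRNA-1 and 85 and 88.4 CPM with ALKBH5 shRNA-2, against 72.5, 63.2 and 71.4 CPM with ALKBH5 scramble, a difference of 0.37 (SE 0.09, limma adjusted p = 0.0063), again with separate groups. PSMD4, a ubiquitin receptor of the cap (chr1:151254709-151267479), was at 298 and 253 CPM with ALKBH5 shRNA-1 and 293 and 266 CPM with ALKBH5 shRNA-2, against 211, 236 and 217 CPM with ALKBH5 scramble. All shRNA libraries lay above scramble, with a difference of 0.32 (SE 0.08, limma adjusted p = 0.0056). PSMD8 rose by 0.32 (SE 0.09, limma adjusted p = 0.013), but not without ALKBH5 shRNA-1 replicate 1 or scramble replicate 1 or 3 (adjusted p between 0.052 and 0.062). PSMD1, a large base scaffold (chr2:231056845-231173116), was at 129 and 145 CPM with ALKBH5 shRNA-1 and 128 and 133 CPM with ALKBH5 shRNA-2, against 122, 116 and 110.3 CPM with ALKBH5 scramble, and its difference of 0.21 (SE 0.08, limma adjusted p = 0.07) did not pass. The ubiquitin-removing subunit PSMD14 differed by 0.10 (SE 0.10, limma adjusted p = 0.55), and PSMD12 had the lowest value of the group, -0.16 (SE 0.07, limma adjusted p = 0.13). PSMD2, PSMD7, PSMD11 and PSMD13 had values between 0.02 and 0.17 that did not pass.

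Among regulators, PSME3, the nuclear activator, rose by 0.28 (SE 0.08, limma adjusted p = 0.016). That call was lost without ALKBH5 shRNA-1 replicate 1, shRNA-2 replicate 3, or scramble replicate 1 or 3 (adjusted p between 0.053 and 0.085). PSME1, PSME2, PSME4 and the inhibitor PSMF1 ranged from -0.28 to 0.25 without passing. The chaperones PSMG1 to PSMG4, PSMD9 and PSMD10 ranged from -0.28 (PSMG1, adjusted p = 0.072) to 0.32 (PSMD10, adjusted p = 0.11). PSMC3IP, which takes part in homologous recombination (chr17:42572310-42577831), was at 118 and 152 CPM with ALKBH5 shRNA-1 and 145 and 144 CPM with ALKBH5 shRNA-2, against 159.5, 177 and 167 CPM with ALKBH5 scramble, a difference of -0.27 (SE 0.08, limma adjusted p = 0.027). The groups did not overlap, but the call was lost without ALKBH5 shRNA-1 replicate 1, either shRNA-2 replicate, or scramble replicate 2 or 3 (adjusted p between 0.055 and 0.15). PSMC3IP overlaps MLX (25.5 CPM) on the opposite strand. PSME3IP1 differed by 0.10 (SE 0.09, limma adjusted p = 0.54).

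The remaining called members are given by their range over libraries. PSMA3 was at 59.2 to 71.8 CPM with ALKBH5 shRNA, against 47.5 to 53.2 with ALKBH5 scramble, and at 61.3 to 78 CPM in libraries labelled RBM33 shRNA, against 55.6 to 68.5 with RBM33 scramble. PSMB1 was at 130.4 to 149 CPM with ALKBH5 shRNA, against 118 to 122 with ALKBH5 scramble, and at 139.9 to 165 CPM in libraries labelled RBM33 shRNA, against 125 to 139.5 with RBM33 scramble. PSMC3 was at 149.7 to 184 CPM with ALKBH5 shRNA, against 122 to 152 with ALKBH5 scramble, and at 168 to 232 CPM in libraries labelled RBM33 shRNA, against 158 to 171 with RBM33 scramble. In the ALKBH5 set PSMA3 and PSMB1 libraries separate, while those of PSMC3 overlap. PSMD8 was at 149 to 178 CPM with ALKBH5 shRNA, against 129.9 to 139 with ALKBH5 scramble, and at 129.5 to 173 CPM in libraries labelled RBM33 shRNA, against 156 to 179.9 with RBM33 scramble. PSME3 was at 145 to 169.9 CPM with ALKBH5 shRNA, against 123 to 137 with ALKBH5 scramble, and at 143 to 166 CPM in libraries labelled RBM33 shRNA, against 137 to 142 with RBM33 scramble. PSMC2 was at 78.6 to 94.2 CPM with ALKBH5 shRNA, against 77.5 to 84.8 with ALKBH5 scramble, and at 85.6 to 106 CPM in libraries labelled RBM33 shRNA, against 70.2 to 83.6 with RBM33 scramble. The ALKBH5 set separates in PSMD8 and PSME3, and the RBM33 set in PSME3 and PSMC2. PSMG3 was at 54.3 to 82.7 CPM with ALKBH5 shRNA, against 61 to 65.5 with ALKBH5 scramble, and at 38.1 to 66.2 CPM in libraries labelled RBM33 shRNA, against 68.9 to 81.9 with RBM33 scramble. PSMA6 was at 53.8 to 69.7 CPM with ALKBH5 shRNA, against 51.1 to 58.4 with ALKBH5 scramble, and at 57.6 to 73 CPM in libraries labelled RBM33 shRNA, against 70.2 to 74.8 with RBM33 scramble. PSMD14 was at 95.2 to 138 CPM with ALKBH5 shRNA, against 97.3 to 106 with ALKBH5 scramble, and at 103 to 123 CPM in libraries labelled RBM33 shRNA, against 128 to 144 with RBM33 scramble. PSMG3 and PSMD14 separate in the RBM33 set, and all 3 genes separate between the scramble groups. Among members that were not called in any pooled comparison but carry many m6A peaks, PSMD2 was at 152 to 179 CPM with ALKBH5 shRNA, against 147 to 162 with ALKBH5 scramble, and at 174 to 190.4 CPM in libraries labelled RBM33 shRNA, against 175 to 195 with RBM33 scramble. PSMC4 was at 82.8 to 95.5 CPM with ALKBH5 shRNA, against 73.7 to 84.3 with ALKBH5 scramble, and at 84.4 to 102 CPM in libraries labelled RBM33 shRNA, against 82.8 to 96.1 with RBM33 scramble. PSMC5 was at 97.6 to 124 CPM with ALKBH5 shRNA, against 95.6 to 106 with ALKBH5 scramble, and at 89.5 to 114 CPM in libraries labelled RBM33 shRNA, against 109 to 116 with RBM33 scramble. In these genes shRNA and scramble ranges overlap in both sets. PSMD11 was at 155 to 171 CPM with ALKBH5 shRNA, against 149.5 to 162 with ALKBH5 scramble, and at 156 to 189 CPM in libraries labelled RBM33 shRNA, against 168 to 175 with RBM33 scramble. PSMB5 was at 44.8 to 57.5 CPM with ALKBH5 shRNA, against 36.3 to 47.5 with ALKBH5 scramble, and at 37.8 to 49.9 CPM in libraries labelled RBM33 shRNA, against 42.2 to 50.1 with RBM33 scramble.

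**Figure D2:**
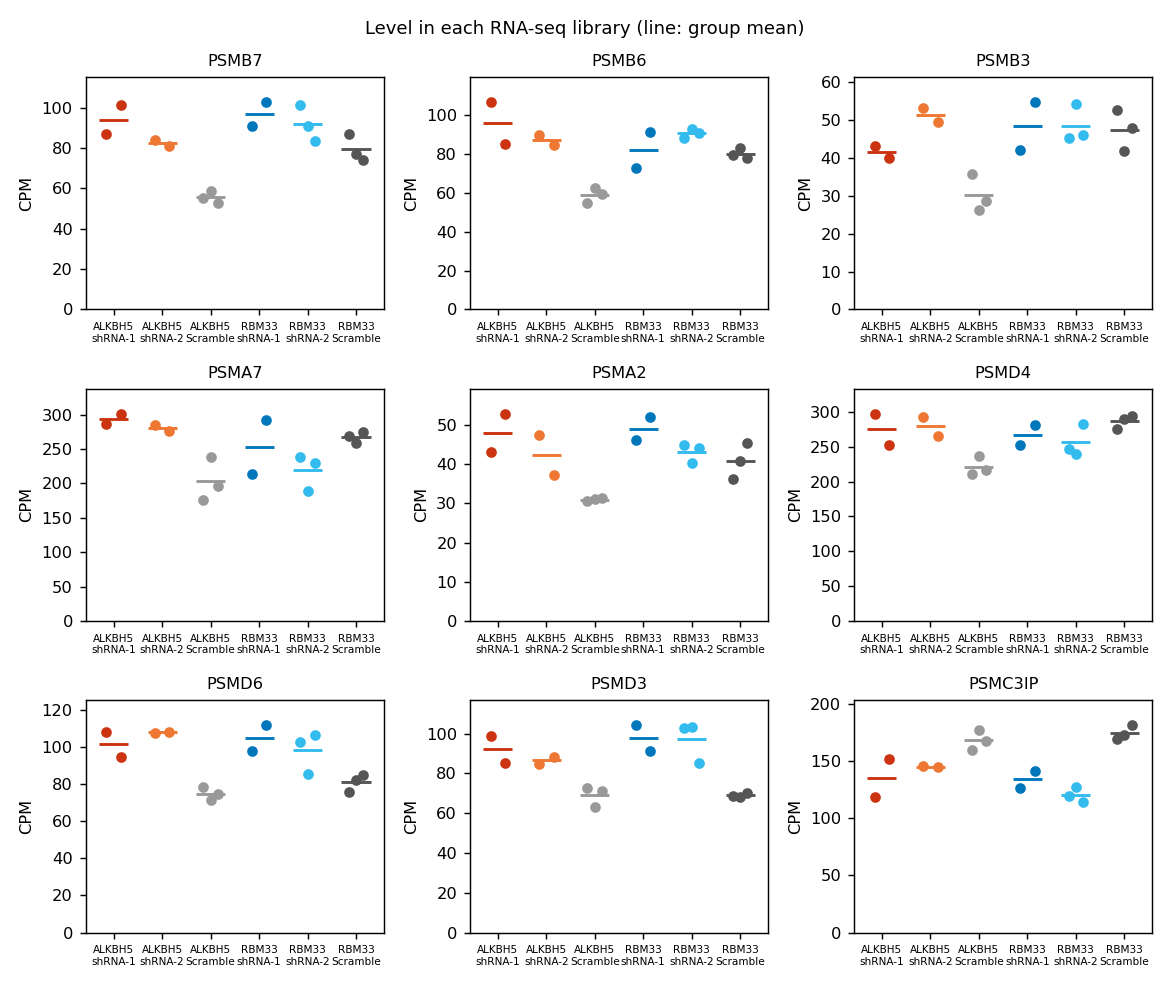
CPM of 9 members in each RNA-seq library (points) with the mean of each group (line), shRNA groups left of their scramble group in each set. PSMB7, PSMB6 and PSMB3 are lower in each of the 3 ALKBH5 scramble libraries than in any other library, while PSMD3 is low in both scramble groups and PSMC3IP high in both.

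In the libraries labelled RBM33 shRNA fewer members differed from their scramble group. Of 45 members, 5 rose (11.1%) and 2 fell (4.44%), against 8.5% and 9.25% of all genes. The share that rose was near that of all genes, and the share that fell, which rests on 2 members, was below it. The median difference was 0.01, against -0.01 over all genes, with 23 of 45 positive. At 20 CPM or more, 13.2% of genes rose and 15.2% fell, against 5 and 2 of 43 members. The counts were 8 higher and 4 lower with a filter at 5 CPM, 11 and 1 when scaled to total reads, and 3 and 1 without RBM33 scramble replicate 1 or 2. CPM values summed to between 1045915 and 1050515 in RBM33 scramble libraries, against 987866 to 1039096 in libraries labelled RBM33 shRNA. Scaling to total reads therefore raises the shRNA libraries against scramble in every gene. The shares of all genes called in these settings are not given here. Every library lay above scramble in 8 members and below it in 4, against 10.8% and 11.6% of all genes. By role, 1 of 7 beta ring, 1 of 6 ATPase and 3 of 11 lid and base genes rose, and none of the 7 alpha ring genes did.

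PSMD3 was at 104 and 91.5 CPM in libraries labelled RBM33 shRNA-1 and 103, 104 and 85.2 CPM in those labelled RBM33 shRNA-2, against 68.9, 68.1 and 70 CPM with RBM33 scramble, a difference of 0.49 (SE 0.09, limma adjusted p = 0.00026). The groups did not overlap, and the call held without any single library. PSMD6 was at 98 and 112 CPM in libraries labelled RBM33 shRNA-1 and 103, 85.2 and 106 CPM in those labelled RBM33 shRNA-2, against 76, 82.5 and 84.7 CPM with RBM33 scramble, a difference of 0.32 (SE 0.08, limma adjusted p = 0.011). All shRNA libraries stood above scramble, and the call was lost without RBM33 shRNA-1 replicate 2 (adjusted p = 0.052) or scramble replicate 1 (adjusted p = 0.074). PSMD1 was at 152 and 151 CPM in libraries labelled RBM33 shRNA-1 and 161, 143 and 136 CPM in those labelled RBM33 shRNA-2, against 122, 114 and 127 CPM with RBM33 scramble, a difference of 0.30 (SE 0.07, limma adjusted p = 0.0061), which was lost without scramble replicate 2 (adjusted p = 0.054). The ATPase PSMC2 rose by 0.30 (SE 0.08, limma adjusted p = 0.014), a call lost without shRNA-1 replicate 2 (adjusted p = 0.052) or scramble replicate 1 (adjusted p = 0.13). PSMC2 overlaps DNAJC2 (188 CPM) and PMPCB (73.6 CPM). PSMB1 rose by 0.21 (SE 0.07, limma adjusted p = 0.049), and did not pass without either shRNA-1 replicate, shRNA-2 replicate 1, or scramble replicate 1 or 2 (adjusted p between 0.052 and 0.19). The core assembly chaperone PSMG3 fell (-0.40 (SE 0.13, limma adjusted p = 0.036)), a call lost without shRNA-1 replicate 1, shRNA-2 replicate 2 or 3, or any scramble replicate (adjusted p between 0.057 and 0.24). PSMC3IP was at 126 and 141 CPM in libraries labelled RBM33 shRNA-1 and 119.6, 127 and 114 CPM in those labelled RBM33 shRNA-2, against 169, 173 and 181 CPM with RBM33 scramble, a difference of -0.46 (SE 0.08, limma adjusted p = 0.0002). Its groups did not overlap, and the call held without any single library.

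Members called in the ALKBH5 set gave these values in the RBM33 set. PSMB7 was at 90.9 and 103 CPM in libraries labelled RBM33 shRNA-1 and 101, 90.8 and 83.2 CPM in those labelled RBM33 shRNA-2, against 86.8, 77.1 and 74.3 CPM with RBM33 scramble, a difference of 0.24 (SE 0.09, limma adjusted p = 0.052). RBM33 shRNA-2 replicate 3 lay below scramble replicate 1 and every other shRNA library above all scramble libraries. PSMB6 was at 72.6 and 91.1 CPM in libraries labelled RBM33 shRNA-1 and 88.2, 92.7 and 90.9 CPM in those labelled RBM33 shRNA-2, against 79.5, 83 and 78 CPM with RBM33 scramble, a difference of 0.10 (SE 0.09, limma adjusted p = 0.48). PSMB3 was at 42.1 and 54.8 CPM in libraries labelled RBM33 shRNA-1 and 45.3, 54.3 and 46.1 CPM in those labelled RBM33 shRNA-2, against 52.7, 41.9 and 47.9 CPM with RBM33 scramble, a difference of 0.03 (SE 0.11, limma adjusted p = 0.9), with overlapping groups. PSMA7 was at 214 and 292 CPM in libraries labelled RBM33 shRNA-1 and 238, 189.5 and 229.6 CPM in those labelled RBM33 shRNA-2, against 269.5, 259 and 275 CPM with RBM33 scramble, a difference of -0.20 (SE 0.10, limma adjusted p = 0.16), in which only shRNA-1 replicate 2 exceeded scramble. PSMD4 was at 252 and 281 CPM in libraries labelled RBM33 shRNA-1 and 247, 240.1 and 282 CPM in those labelled RBM33 shRNA-2, against 276, 289 and 295 CPM with RBM33 scramble, a difference of -0.13 (SE 0.07, limma adjusted p = 0.22). PSMA2 was at 46.1 and 52 CPM in libraries labelled RBM33 shRNA-1 and 44.8, 40.2 and 44.2 CPM in those labelled RBM33 shRNA-2, against 36.2, 40.8 and 45.3 CPM with RBM33 scramble, a difference of 0.17 (SE 0.11, limma adjusted p = 0.28). PSMB2 was at 80.3 and 82.3 CPM in libraries labelled RBM33 shRNA-1 and 81.6, 84 and 79.5 CPM in those labelled RBM33 shRNA-2, against 77.8, 67.9 and 70 CPM with RBM33 scramble (0.18, adjusted p = 0.11), and PSMC1 at 135 and 160.5 CPM in libraries labelled RBM33 shRNA-1 and 118, 126 and 131 CPM in those labelled RBM33 shRNA-2, against 121, 108 and 123 CPM with RBM33 scramble (0.21, adjusted p = 0.056). Members called higher in both sets were PSMB1, PSMD3 and PSMD6, 3 of 15 in the ALKBH5 set and 3 of 5 in the RBM33 set, and PSMC3IP was called lower in both. PSMB10 was at 2.29 and 2.67 CPM in libraries labelled RBM33 shRNA-1 and 3.3, 2.56 and 4.3 CPM in those labelled RBM33 shRNA-2, against 4.36, 2.75 and 4.43 CPM with RBM33 scramble, a difference of -0.30 (SE 0.24, limma adjusted p = 0.41).

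A direct test of the difference between the ALKBH5 effect and the RBM33 effect called 3 of 45 members higher and 0 lower, against 2.01% and 0.686% of all genes (2.69% in either direction), and against 4.0% and 1.4% of genes at 20 CPM or more. They were PSMA7 (0.71 (SE 0.14, limma adjusted p = 0.0053)), PSMB6 (0.53 (SE 0.13, limma adjusted p = 0.023)) and PSMD4 (0.46 (SE 0.11, limma adjusted p = 0.018)). The PSMA7 call held without any single library, and PSMA7 was the only member called without ALKBH5 shRNA-1 replicate 1, ALKBH5 shRNA-2 replicate 1, RBM33 shRNA-1 replicate 1 or RBM33 scramble replicate 2. The count was 6 without ALKBH5 shRNA-2 replicate 3 or RBM33 shRNA-2 replicate 1, and 5 without RBM33 shRNA-1 replicate 2. PSMB6 was lost without ALKBH5 shRNA-1 replicate 1, ALKBH5 shRNA-2 replicate 1, ALKBH5 scramble replicate 1, RBM33 shRNA-1 replicate 1 or RBM33 scramble replicate 1 or 2 (adjusted p between 0.058 and 0.074). PSMD4 was lost without those same 3 shRNA libraries, without ALKBH5 scramble replicate 1 or 3, or without RBM33 scramble replicate 2 or 3 (adjusted p between 0.052 and 0.057). For PSMB7 (0.41, adjusted p = 0.078) and PSMB3 (0.58, adjusted p = 0.06) a difference between the effects did not pass limma's test.

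The scramble groups themselves differed in these genes. Between ALKBH5 scramble and RBM33 scramble, 0 of 45 members were higher and 7 were lower (15.6%), against 0.269% and 2.21% of all genes, and 4.64% of genes at 20 CPM or more were lower. The 7 were PSMB3 (-0.64), PSMB7 (-0.51), PSMB6 (-0.44), PSMA6 (-0.41), PSMD14 (-0.41), PSMA7 (-0.41) and PSMD4 (-0.37), with limma adjusted p between 0.0031 and 0.04. The median over members was -0.21, against 0.00 over all genes, and 41 of 45 were negative. Every ALKBH5 scramble library lay below every RBM33 scramble library in 23 members and above in 2, against 11.9% and 9.04% of genes. PSMB7 kept its call without any single library, PSMB3 lost it without RBM33 scramble replicate 1 (adjusted p = 0.051), and PSMB6 lost it without ALKBH5 scramble replicate 1 or RBM33 scramble replicate 1 or 2 (adjusted p between 0.051 and 0.074). PSMD4 lost it without ALKBH5 scramble replicate 1 or 3 or RBM33 scramble replicate 2 or 3 (adjusted p between 0.055 and 0.062). PSMA6 and PSMA7 lost it without any scramble library other than ALKBH5 scramble replicate 2, and PSMD14 without any of the 6 (adjusted p between 0.065 and 0.21). The count of 7 fell to 2 without ALKBH5 scramble replicate 1 or RBM33 scramble replicate 1 or 2, and to 3 without replicate 3 of either scramble group. Scaled to total reads, 1 member was higher and 2 were lower, and with quantile normalization 0 and 4 were. Of the 7 members lower in ALKBH5 scramble, 5 are among the 15 that were higher with ALKBH5 shRNA, and both comparisons use the same ALKBH5 scramble libraries.

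Between ALKBH5 shRNA and libraries labelled RBM33 shRNA, limma called 0 of 45 members, as did edgeR and DESeq2 on recovered reads, with 8 members at an unadjusted p under 0.05. The call rate over all genes was 0.302%, with 0.172% higher and 0.466% lower among genes at 20 CPM or more. In 0 members did the groups separate, against 1.6% of genes with every ALKBH5 shRNA library above and 2.25% with every one below. The member with the lowest adjusted p was PSMA7 (0.30 (SE 0.09, limma adjusted p = 0.14)), and the median was -0.04. The interval of PSMB7 ran from -0.26 to 0.07 and that of PSMB6 from -0.08 to 0.26. With the mean of both scramble groups as the control, 10 members rose and 3 fell in the ALKBH5 set, and 16 rose and 1 fell in the RBM33 set. The shares of all genes called with that control are not given here, so these counts are not set against them. The sets were labelled as separate series of libraries, so a difference between scramble groups and one between preparations of the sets cannot be told apart.

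**Figure D3:**
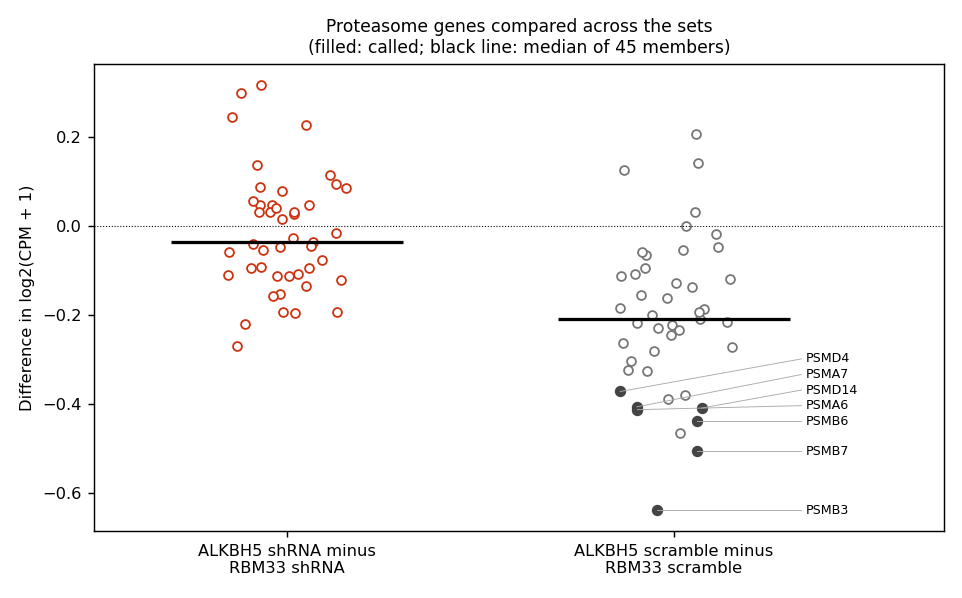
Differences in log2(CPM + 1) of the 45 members across the sets: ALKBH5 shRNA minus RBM33 shRNA at left and ALKBH5 scramble minus RBM33 scramble at right. Filled points passed limma adjusted p under 0.05, black lines are medians (-0.04 and -0.21), and all 7 filled points lie below 0 in the scramble comparison.

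Taken singly, ALKBH5 shRNA-1 called 9 members higher and 1 lower, and shRNA-2 called 12 higher and 0 lower, against 5.05% and 3.48%, and 5.06% and 5.0% (10.1% in either direction) of all genes. Of these, 8 were called higher with both (PSMA2, PSMA7, PSMB2, PSMB3, PSMB6, PSMB7, PSMD4 and PSMD6), and the shRNAs share their scramble libraries. Without its replicate 1, ALKBH5 shRNA-1 called 4 members in all, as did ALKBH5 shRNA-2 without its own. ALKBH5 shRNA-2 called 6 without ALKBH5 scramble replicate 1 or 3. RBM33 shRNA-1 called 5 higher and 2 lower, and RBM33 shRNA-2 called 2 higher and 2 lower, against 5.62% and 5.27%, and 6.44% and 7.27% of genes. RBM33 shRNA-1 called 3 in all without either of its replicates or RBM33 scramble replicate 2 and 4 without scramble replicate 1, and RBM33 shRNA-2 called 2 without scramble replicate 1 or 2. Between shRNA-1 and shRNA-2 limma called 0 genes for ALKBH5 and 0 for RBM33, and at an unadjusted p under 0.05 it found 943 and 994 genes, of which 0 and 1 were members. In the authors' deposited edgeR tables, 9 members were higher and 1 lower with ALKBH5 shRNA-1, and 10 higher and 0 lower with shRNA-2, at adjusted p under 0.05, against 4.34% and 2.99%, and 3.97% and 3.63% of listed genes. In the authors' deposited DESeq2 tables the counts were 15 and 1, and 14 and 0, against 3.31% and 3.55%, and 3.44% and 4.64% of listed genes. For RBM33, the authors' deposited edgeR tables held 5 higher and 2 lower members with shRNA-1 and 3 higher and 4 lower with shRNA-2, against 4.98% and 4.99%, and 5.38% and 6.24% of genes. The authors' deposited DESeq2 tables held 5 and 2, and 2 and 2, against 3.87% and 3.97%, and 3.71% and 4.03% of genes. In the authors' deposited edgeR tables PSMB7 changed by 0.76 and 0.57 with the ALKBH5 shRNAs (adjusted p = 8e-05 and 0.0021), and PSMB6 by 0.71 and 0.57 (adjusted p = 0.00028 and 0.0022).

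Genes that work with the proteasome were counted beside it. Among 25 partners (receptors, shuttle factors, assembly and segregase proteins), 4 rose and 1 fell in the ALKBH5 set, with a median of 0.06, against 7.93% and 7.18% of all genes tested. The maturation factor POMP rose by 0.44 (SE 0.12, limma adjusted p = 0.018) and the small lid subunit SEM1 by 0.38 (SE 0.09, limma adjusted p = 0.0047). The segregase subunits UFD1 (0.56) and VCP (0.25) rose, while the deubiquitinase UCHL5 fell (-0.38). In the RBM33 set 4 partners rose and 3 fell, against 8.5% and 9.25% of all genes, with UCHL5 at -0.40 and the proteasome-binding protein PITHD1 at -0.60 among the falls. Of 11 genes of the NRF1 pathway, 1 rose and 1 fell in the ALKBH5 set, namely HCFC1 (0.86) and SEL1L (-0.43), a share near that of all genes in each direction. In the RBM33 set HCFC1 (1.21), DERL1 (0.42) and the NRF1 protease DDI2 (0.25) rose, and NFE2L1 itself fell by 0.23 in log2 units (limma adjusted p = 0.05, under the threshold before rounding). Of all genes, 8.5% rose and 9.25% fell in that set. In the ALKBH5 set NFE2L1 was not called. It was at 113, 107, 104 and 126 CPM with ALKBH5 shRNA, against 134, 123 and 142.5 CPM with ALKBH5 scramble.

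Of 7 genes that supply ubiquitin or carry it, 2 rose and 1 fell in the ALKBH5 set, against 0 and 3 in the RBM33 set, and against the same shares of all genes as above. The ubiquitin gene UBB rose with ALKBH5 shRNA (0.57, SE 0.08, limma adjusted p = 1.5e-05), as did the conjugating enzyme UBE2L3 (0.39), and the activating enzyme UBA6 fell (-0.37). UBB was also lower in ALKBH5 scramble than in RBM33 scramble (-0.42, limma adjusted p = 0.0039). Of 15 genes of class I antigen processing and interferon, 1 rose and 2 fell in the ALKBH5 set (HLA-B 0.27; TAPBP -0.64 and TAP2 -0.42), and 1 rose and 1 fell in the RBM33 set (NLRC5 0.71 and HLA-C -0.30). Of all genes, 7.93% rose and 7.18% fell in the ALKBH5 set, and 8.5% and 9.25% in the RBM33 set. The antigen processing counts rest on 1 or 2 genes in each direction.

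For m6A, the authors' deposited effect tables list peaks with a natural-log effect of at least 0.5 in size, shRNA against scramble, with p-values per peak and no value per library. With ALKBH5 shRNA-1 they list 50 peaks in 27 members, 33 higher and 17 lower, so that 66% were higher, against 64.7% of all 13120 listed peaks. With ALKBH5 shRNA-2 they list 70 peaks in 28 members, 60 higher and 10 lower, or 85.7% higher, against 72.5% of 19251 peaks. With RBM33 shRNA-1 they list 11 peaks in 7 members, 10 of them higher, and with RBM33 shRNA-2 9 peaks in 8 members, all 9 higher, against 87.6% and 87.5% of all peaks. Both ALKBH5 comparisons share their scramble libraries, as do both RBM33 comparisons. A listed peak was present for 58.7%, 60.9%, 15.2% and 17.4% of the 46 members, against 41.9%, 48.9%, 10.2% and 14.7% of protein-coding genes tested in RNA, and members are more abundant than most genes. No peak was listed for 13 members, PSMA2, PSMA3, PSMB1, PSMB2 and PSMB4 among them.

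PSMD2, a scaffold subunit of the cap base, had the most listed peaks, 12, all higher, in 3 tables. PSMC4 and PSMD11 followed with 11 each, 9 higher, and both appear in all 4 tables, as does PSMD6. In PSMD3 a peak at chr17:39989850-39989899 had an effect of 2.48 with ALKBH5 shRNA-1 and 2.53 with shRNA-2 (the authors' p = 0.0036 and 0.00021). In PSMC4 the peak at chr19:39979846-39979945 had 1.64 with shRNA-1, and the overlapping peak at chr19:39979896-39980080 had 2.53 with shRNA-2. A narrower peak there had 0.84 with RBM33 shRNA-2. In PSMB5, whose RNA did not pass, the peak at chr14:23027774-23027823 had 0.85 with ALKBH5 shRNA-1, 1.63 with ALKBH5 shRNA-2 and 0.88 with RBM33 shRNA-2. PSMD6 had a lower peak at its 3′ end (chr3:64010640-64010689) with both ALKBH5 shRNAs (-0.88 and -0.90), and a higher peak further inside (chr3:64018887-64018936) with both RBM33 shRNAs (1.02 and 1.07). In the alpha ring, PSMA1, PSMA4, PSMA6 and PSMA7 had 1 listed peak each, all lower, at -1.29, -0.60, -1.41 and -0.87. Exon boundaries were not analysed here, so peaks are placed only by the span of their gene.

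**Figure D4:**
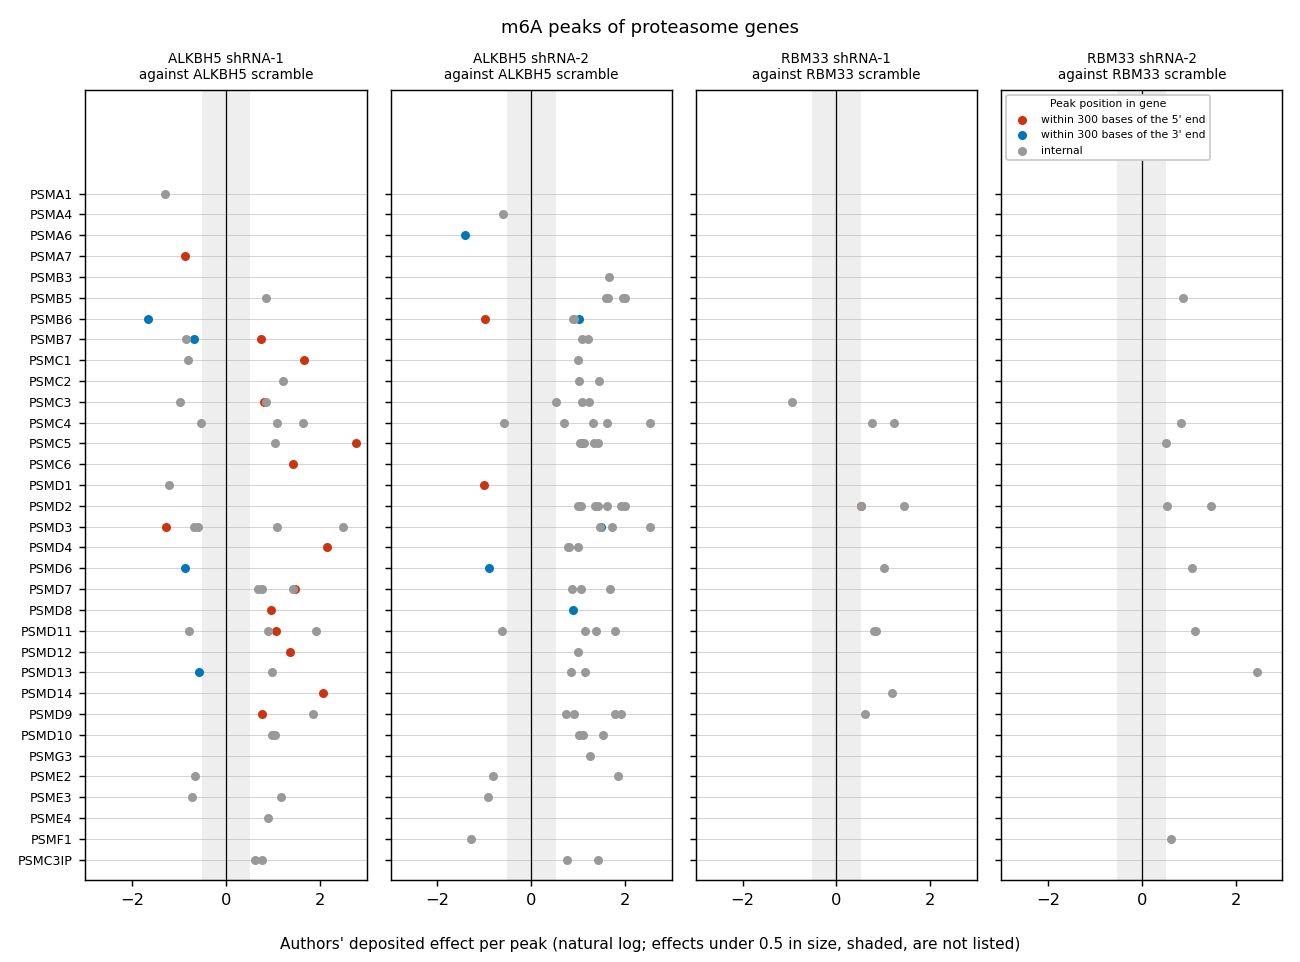
The authors' deposited natural-log effect of each listed m6A peak of a proteasome gene, in 4 comparisons of an shRNA with its scramble; rows are genes by role, and colour gives the place of the peak in the gene. With ALKBH5 shRNA-1, 14 points are within 300 bases of the 5′ end and 12 of them are higher, while with ALKBH5 shRNA-2 there are 2, both lower. Over all genes, 63.7% and 43.8% of the peaks placed there were higher.

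Peaks were then placed by their distance from the ends of the gene. With ALKBH5 shRNA-1, 14 of 50 member peaks (28%) were within 300 bases of the 5′ end of the gene, 12 of them higher, against 10.6% of all peaks that could be placed. With ALKBH5 shRNA-2, 2 of 70 (2.86%) were, both lower, against 4.34% of all peaks. Over all genes, 63.7% of the peaks at 5′ ends were higher with shRNA-1 and 43.8% with shRNA-2, so the direction there differed between the shRNAs beyond the proteasome genes. For 8 members a listed peak of shRNA-1 covered the RefSeq start or the 50 bases after it. The RefSeq start can differ from the end of the deposited gene span, from which the distances above were taken. The PSMC2 peak lies inside that span, which begins at chr7:103328570, and is not among the 14. The first 30 transcribed bases of 5 of the 8 members are given to show the sequence at these peaks, with GGAC, a core of the m6A motif, in capitals.
PSMC5, chr17:63827431-63827460, plus strand: gcttccgcgcttgcgcgccaagacggctcg
PSMC1, chr14:90256553-90256582, plus strand: ggtggaggaacttccggcagcggcagctca
PSMD7, chr16:74296814-74296843, plus strand: ggaagaagaggaactgggcctgaaagggta
PSMC6, chr14:52707200-52707229, plus strand: atgagagacggcttctcatcatggcGGACc
PSMC2, chr7:103347643-103347672, plus strand: aagacaccaccggaagcaaggaaggtgctg
The peak over the PSMC5 start (chr17:63827410-63827459) had the highest effect of any member, 2.77 (the authors' p = 0.0021). The peaks over the starts of PSMC1, PSMC6 and PSMC2 had 1.67, 1.42 and 1.22, and the PSMD7 peak, which begins inside the printed bases, had 1.48. Of these windows the PSMC6 one holds GGAC, as do 11% of all RefSeq start windows of 30 bases, and PSMC6 and PSMC2 begin with an A, as do 44.4% of all.

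The authors' deposited share tables give the methylated share of a peak as a fraction, for peaks at adjusted p under 0.1. They list 10 member peaks in 9 members for ALKBH5 shRNA-1, 8 higher and 2 lower (80.0% higher, against 67.7% of 721 peaks). For ALKBH5 shRNA-2 they list 1, which was higher, as were 91.2% of 182 peaks. For the RBM33 shRNAs, 0 of 20 and 0 of 18 listed peaks were of members. A peak was listed for 19.6% and 2.17% of members with the ALKBH5 shRNAs, against 4.18% and 0.98% of protein-coding genes tested in RNA. Members are more abundant than most genes. In the authors' deposited table for shRNA-1, a PSMD4 peak (chr1:151265394-151265443) had a share of 58.3% with shRNA, against 7.47% with scramble (adjusted p = 1.9e-05). The PSMD8 peak near its 5′ end (chr19:38374800-38374849) had 44.7%, against 11.2% (adjusted p = 0.0001), and its effect in the other table was 0.96. The PSMD12 peak near its start (chr17:67366506-67366555) had 41.6%, against 9.84% (adjusted p = 0.044). The catalytic genes PSMB6 (chr17:4796194-4796293) and PSMB7 (chr9:124415374-124415423) had 58.3% and 28.4% with shRNA-1, against 26.3% and 8.67% with scramble (adjusted p = 0.047 and 0.013). At the same PSMB6 position the effect listed for shRNA-2 was -0.98 (the authors' p = 0.0067). The chaperone PSMG1 had 37.2%, against 17.9%, and PSMC3 61.9%, against 50.4%. The shares that were lower with shRNA-1 belong to PSMD3 (chr17:39980918-39981167), with 34.7%, against 56.8% (adjusted p = 0.007), and PSMA7 (chr20:62140896-62143358), with 13.9%, against 23.7% (adjusted p = 0.088). Of the listed peak of shRNA-2, in PSMD4 (chr1:151266088-151266332), the share was 42.0% with shRNA, against 23.3% with scramble (adjusted p = 0.049). Of the 15 members whose RNA rose in the ALKBH5 set, 11 have a listed peak in an effect table of either target, against 33 of all 46 members, a like share. With the ALKBH5 shRNAs the direction of the peaks is mixed in PSMB6, PSMB7, PSMC1, PSMC3, PSMD3 and PSME3. In PSMD6 the peaks listed with ALKBH5 shRNAs were lower and those with RBM33 shRNAs higher.

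**Figure D5:**
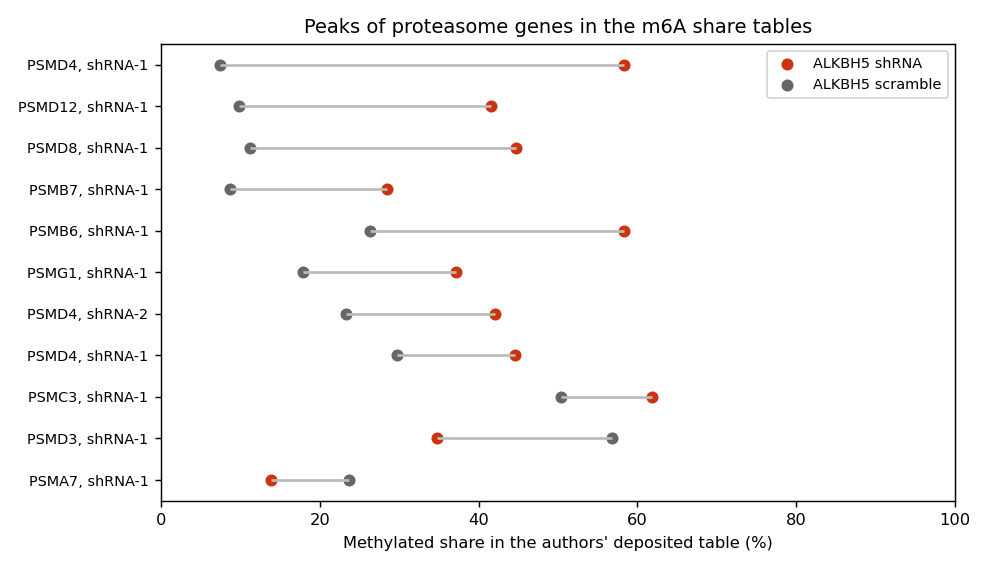
Methylated share in percent of each member peak listed in the authors' deposited share tables, for the ALKBH5 shRNA named beside the gene (red) and for ALKBH5 scramble (grey). The red point lies to the right in 9 of 11 peaks and to the left in PSMD3 and PSMA7.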

How the data were processed

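Input RNA-seq and m6A-seq of UM-SCC-1 cells were labelled for 36 samples in 12 groups of 3, and values of 15 of the 18 RNA-seq samples were analysed here. Per the submitters' processing notes, the tools were cutadapt 1.18, HISAT2 2.1.0, featureCounts (Subread 1.6.4) and edgeR 3.24.3 with genome build hg38, and DESeq2 appears with no version. The deposited expression signal holds, per the file headers, CPM, which the authors computed on scaled library sizes. Every value was a whole number of reads, within 0.1 read, once its library's step was removed (100% of values). Per the file headers, further deposited tables hold log2 changes and adjusted p-values from comparisons the authors ran in edgeR and DESeq2. The deposited m6A tables give the authors' natural log effect per peak with an unadjusted p-value, or the methylated share of both groups, a fraction, beside an adjusted p-value. How peaks were called and whether counting used strand are not given in the sources used here, and the base of the effect was read from the values.

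From these, log2(CPM + 1) of all genes averaging 1 CPM or more was fitted with limma 3.58.1 (R 4.3.3, trended variance) as 6 group means with 9 residual degrees of freedom, and Benjamini-Hochberg adjusted p under 0.05 was called over 18227 genes. Pooled contrasts weight both shRNAs of a target equally. The fold sizes understate changes of low genes. The fitting was tested on simulated data. On the recovered reads, edgeR 4.0.16 (quasi-likelihood) and DESeq2 1.42.0 served as alternatives and called 2808 and 2679 genes in the ALKBH5 set, beside other pseudocounts, filters, scalings, a length trend, the scramble groups averaged and each library left out. Libraries of 4493849 to 6733017 reads limit the precision of members at a few reads, and a count of 0 allows up to 3 reads, covering counting error only. Every member is accounted for by role. Values of every library are given for the 12 called members of lowest adjusted p and for PSMB10 (PSMB9 in reads), and partner genes are those called within their lists. The naming rule also asked for every library of each member with an m6A peak, which are given as ranges for the members with most peaks only. Peaks named were chosen after their values were seen. The members and lists were chosen with earlier results of these data known, and some listed genes are not reported here and were left out of the counts of their lists. No pair of replicates agreed within sampling noise (their chi-square divided by its degrees of freedom was 2.90 to 8.04).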

Additional observations from a re-analysis of the deposited data

Results flagged for a closer look

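The effect of ALKBH5 shRNA differed from that of the libraries labelled RBM33 shRNA for 3 proteasome genes in limma's test of the difference itself. The difference between the effects, ALKBH5 minus RBM33 on the log2(CPM + 1) scale, was 0.71 for PSMA7 (adjusted p = 0.0053), 0.53 for PSMB6 (adjusted p = 0.023) and 0.46 for PSMD4 (adjusted p = 0.018). The same 3 genes were lower in ALKBH5 scramble than in RBM33 scramble, by -0.41, -0.44 and -0.37. By construction, the difference between the effects is the difference between the shRNA groups minus that between the scramble groups. The scramble differences are therefore contained in the 3 values. Compared directly, ALKBH5 shRNA and libraries labelled RBM33 shRNA gave 0 calls among 45 members.

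The ubiquitin gene UBB differed by 0.39 (adjusted p = 0.046). The ubiquitin receptor ADRM1 differed by 0.42 (adjusted p = 0.048), and HCFC1, a cofactor of transcription, by -0.35 (adjusted p = 0.047). ALKBH5 itself differed by -0.47 (adjusted p = 0.023), as the target of one set. Scramble differences are contained in these values too. UBB was at 440 to 480 CPM with ALKBH5 scramble, against 578 to 642 CPM with RBM33 scramble. ADRM1 was at 109 to 132 CPM, against 148 to 158 CPM. The shRNA ranges of UBB and ADRM1 overlap between the sets. For HCFC1 and ALKBH5 the scramble ranges overlap and the shRNA ranges do not.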

How the results depend on the processing

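Of 16 member calls in the ALKBH5 set, 9 held in every alternative run (PSMA2, PSMA7, PSMB2, PSMB3, PSMB6, PSMB7, PSMC1, PSMD3 and PSMD6), as did 2 of 7 in the RBM33 set (PSMD3 and PSMC3IP), 1 of 3 differences between the effects (PSMA7) and 1 of 7 between the scramble groups (PSMB7). No named call changed its direction. With the mean of both scramble groups as control, PSMD4 lost its ALKBH5 call (adjusted p = 0.14), and 17 members in place of 7 were called in the RBM33 set. In that set 12 were called with a filter at 5 CPM and 12 when scaled to total reads. Between the effects, 5 were called with the 5 CPM filter and 6 by DESeq2 on recovered reads. Between the scramble groups, 3 were called when scaled to total reads, which moved the median of all genes there to 0.11, and 4 with quantile normalization. The causes were not tested, and the shares of all genes called in these settings are not given here. Leaving out 1 library at a time, with a lone library assumed to vary like the other groups, gave between 10 and 15 calls in the ALKBH5 set, 4 and 10 in the RBM33 set, 1 and 6 between the effects, and 2 and 6 between the scramble groups. For single shRNAs it gave between 4 and 9 for ALKBH5 shRNA-1, 4 and 10 for ALKBH5 shRNA-2, 3 and 6 for RBM33 shRNA-1, and 2 and 4 for RBM33 shRNA-2, and 0 between the shRNA groups of the sets.

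With an absolute m6A effect of at least 1, which keeps fewer peaks by construction, 23 member peaks were left for ALKBH5 shRNA-1, 4 for RBM33 shRNA-1 and 4 for RBM33 shRNA-2. In the share tables that threshold left 6 for ALKBH5 shRNA-1 and 0 for shRNA-2, and an adjusted p under 0.01 left 4 and 0.

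Libraries of the same replicate number did not deviate together (correlations between -0.0761 and 0.0735). A fit with the replicate number as a block called 14 higher and 1 lower in the ALKBH5 set, 4 and 3 in the RBM33 set, 3 between the effects and 6 between the scramble groups. PSMB1 passed in neither set in that fit (adjusted p = 0.052 and 0.063), nor did PSMA7 between the scramble groups (adjusted p = 0.056).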
